A study of Mus musculus with 6 samples.

Results

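Potassium channel subunit genes were followed in the trigeminal ganglion of mice, which holds the cell bodies of sensory neurons that serve the face. The set was every gene of the expression table whose symbol begins with Kcn, apart from Kcnj10 and Kcnj13, which were left out by the rule that defined the set. That gave 68 genes of the 13673 in the table, and 60 of them passed the filter for testing, an average over the 6 libraries of 1 FPKM or more. FPKM is a count of sequenced fragments scaled to transcript length and to the mapped fragments of the library, so levels can be set side by side between genes of different length. The 6 libraries were made from wild-type mice that had received either CFA (complete Freund's adjuvant, an oil emulsion that causes local inflammation) or saline, with the ganglion taken on day 3 and 3 libraries per group. The labels do not state the age, sex or strain of the mice, or where the injection was made. The study's title concerns the transcription factor IRF7 and interferon beta in inflammatory pain.

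Potassium channels let potassium leave the cell, which holds the resting potential, ends the action potential and limits repeated firing. In sensory neurons, lower potassium current is a known route to hyperexcitability after nerve injury or inflammation. The family falls into classes by structure. Voltage-gated (Kv) alpha subunits assemble as tetramers, with auxiliary beta subunits and calcium sensors attached. Inward rectifiers (Kcnj) and background channels (Kcnk) set the resting potential. Calcium-activated channels (Kcnm, Kcnn), the M-current channels (Kcnq) and the sodium-activated channels (Kcnt) act during and after spikes.

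FPKM totals per library ran from 261183 to 275152. All 10 neuronal markers were present, with Uchl1 at a mean of 788 FPKM with CFA and 732 with saline, and the neuronal list as a whole summed to 4532 to 5145 FPKM in the CFA libraries and 3836 to 4829 in the saline libraries. Libraries stood apart in other tissue: the pituitary hormone gene Gh was listed at 157 to 3482 FPKM, highest in saline replicate 3, and mitochondrial transcripts made up 7.24% of the total in CFA replicate 3 against 10.6% to 13.7% in the others. Glial markers differed between the groups as well. Those listed for oligodendrocytes summed to 281 to 342 FPKM with CFA and 201 to 258 with saline (6 of 6 estimates above 0). Those listed for astrocytes summed to 198 to 221 and 146 to 158 (5 of 5), with Gfap the highest of them by mean. Which cells or tissue gave these values was not tested. The sum of the genes listed for central neurons overlapped, at 18.8 to 23.7 and 19.1 to 24.0 FPKM. Most of it was Slc17a7, at 15.4 to 18.8 FPKM with CFA and 16.8 to 19.3 with saline, while Gad1 and Gad2 were under the filter. Ttr, listed as a marker of choroid plexus, was at 186 to 258 FPKM with CFA and 1.88 to 2.25 with saline. Of the other choroid plexus markers, Clic6 had means of 1.28 and 0.688 FPKM and Kl of 0.693 and 0.354. Folr1 and Otx2 had no row. Satellite glia markers summed to 1662 to 2151 and 1149 to 1477 FPKM. The part of these tissues and cells in the channel values that follow was not tested. The libraries are bulk tissue of neurons and glia, in which fewer cells of a type and less RNA per cell cannot be told apart.

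No potassium channel gene passed the test between CFA and saline at an adjusted p below 0.05 (limma, Benjamini-Hochberg over all 12238 genes), where 0.0572% of all genes tested did. At an unadjusted p below 0.05 by limma there were 6 of 60 genes. Kcnt1, Kcnk13, Kcnk5 and Kcnab3 were higher with CFA, and Kcna1 and Kcnip1 were lower. Over all genes tested that share was 8.32% (5.37% higher and 2.95% lower), close to the 10% of the channel genes (6.67% higher and 3.33% lower), so the count does not set the family apart. The CFA and saline values did not overlap in 9 of the 60, with 4 higher and 5 lower, which is 15.0% against 14.5% of all genes tested (7.89% higher and 6.66% lower). Estimates were above 0 for 29 genes and below 0 for 31, with a median log2 fold change of -0.013 beside 0.005 for all genes tested. Each log2 fold change is the CFA mean minus the saline mean of log2(FPKM + 1), a scale that understates the change of genes with low levels. Summed over the 68 genes, the CFA libraries held 603, 625 and 629.6 FPKM and the saline libraries 636.5, 645.5 and 641. Without CFA replicate 3, 3 of the 59 genes then tested (Kcna1, Kcnk13 and Kcnt1) stood at an unadjusted p below 0.05, which is 5.08% against 6.12% of all genes in that fit. Without both libraries numbered 3 there were also 3 (Kcnab3, Kcnc1 and Kcnt1), 5.08% against 5.69%.

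The intervals say how large a difference these libraries can leave unseen. For 44 of the 60 genes the 95% interval of the log2 fold change lay within a change of 1.5-fold in FPKM + 1 in either direction. For 53 it lay within a 2-fold change on that scale. For genes with low levels the same interval spans a larger change in FPKM itself, so it does not exclude a 1.5-fold change in FPKM for all of the 44. The median width to either side was 0.289 on the log2 scale, and it ranged from 0.153 for Kcna2 to 1.60 for Kcnb2. An estimate of 1.5-fold or more on this scale was reached by 2 genes, Kcnt1 and Kcng4. Kcng4 reached it through saline replicate 3, at 0.101 FPKM, and without that library its log2 fold change was 0.27.

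**Figure D1:**
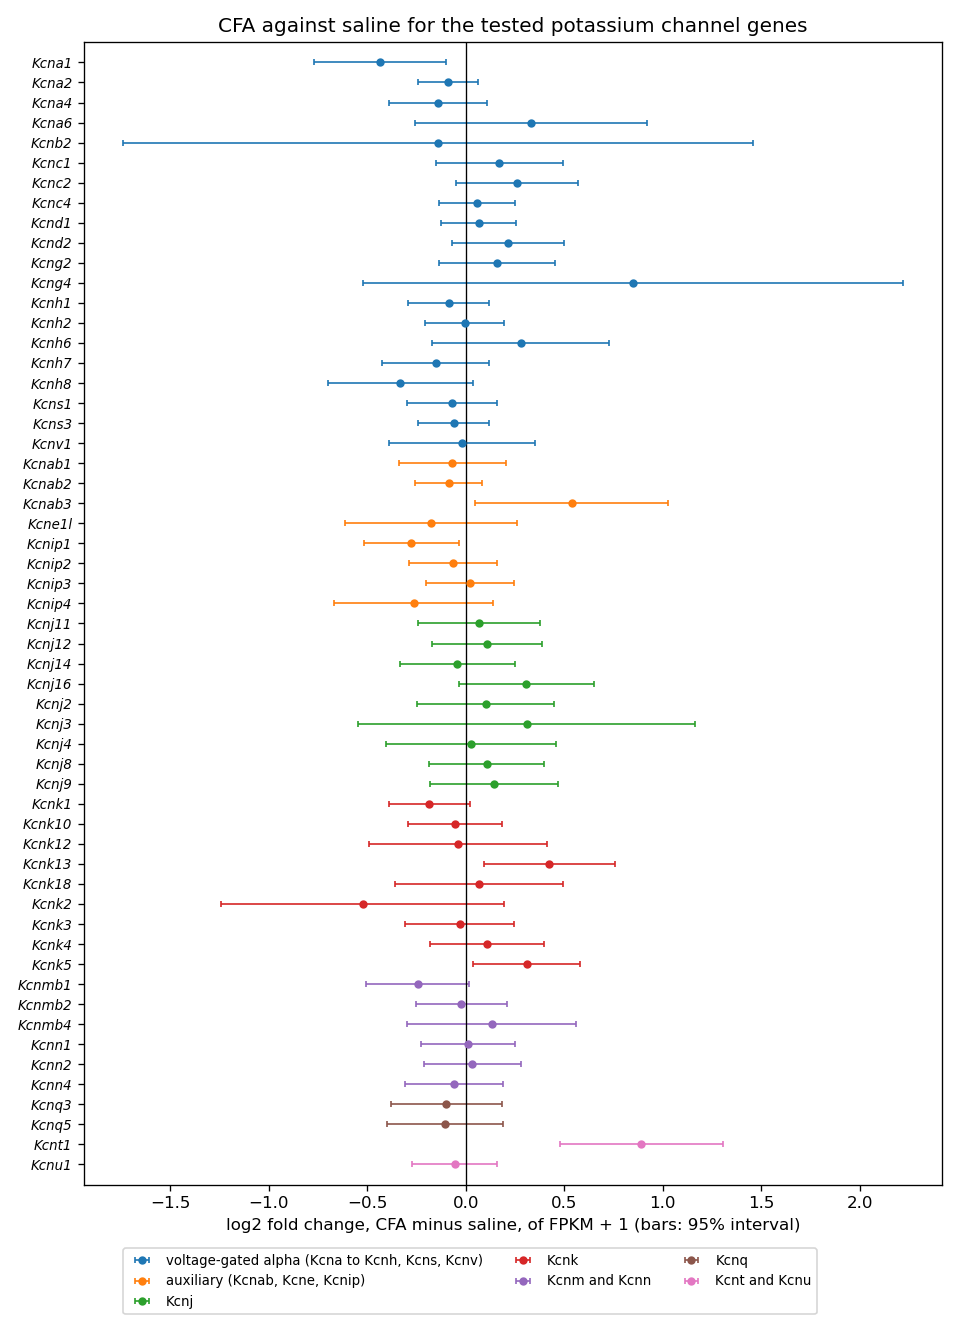
Log2 fold change of FPKM + 1, CFA minus saline, for 56 of the tested potassium channel genes (points, coloured by subfamily) with the 95% interval from limma (bars). Most points lie near 0, the interval of Kcnt1 lies farthest from 0 on the higher side, and the widest intervals belong to Kcnb2 and Kcng4.

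Kcnt1 had the smallest p of the family. It encodes a sodium-activated potassium channel subunit, also called Slack, whose loss in rodent sensory neurons is known to make them fire more. Its level was 7.80, 7.29 and 9.86 FPKM in the CFA libraries and 4.99, 4.13 and 3.05 FPKM in the saline libraries. All 3 CFA values were higher than every saline value, with CFA replicate 3 the highest and saline replicate 3 the lowest of the 6. The means were 8.32 ± 1.36 and 4.06 ± 0.971 FPKM (SD, n = 3), a ratio of 2.05. This is a log2 fold change of 0.89 (SE 0.173), with an adjusted p of 0.218 by limma that did not pass. Without both libraries numbered 3 the log2 fold change was 0.62 and the adjusted p 0.442. Kcnt1 lies on chromosome 2 at 25863734 to 25918273 (GRCm38) and has 15 annotated transcripts, none of whose exons overlap another gene. The sum of the neuronal markers overlapped between the groups, and of these 10 genes none passed at an unadjusted p below 0.05 by limma. Estimates were above 0 for 7 of the 10, with a median log2 fold change of 0.096, and Calca was higher without overlap. The part of neurons or of other cells in the Kcnt1 values was not tested.

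The other sodium-activated gene, Kcnt2, was under the filter at 0.898 ± 0.283 FPKM with CFA and 0.668 ± 0.0694 with saline (SD, n = 3). Kcnu1, which encodes the pH-sensitive channel known mainly from sperm, was listed in every library between 1.73 and 2.05 FPKM. Its groups overlapped, with a log2 fold change of -0.06 and a 95% interval from -0.27 to 0.16.

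Levels in the ganglion spanned more than 2 orders of magnitude. The highest was Kcnab2, a cytoplasmic beta subunit of Kv1 channels, at 108 ± 2.42 FPKM with CFA and 114 ± 6.37 with saline. It was followed by the background channel Kcnk1, the calcium-sensor subunit Kcnip3, the Kv1 alpha subunit Kcna2, Kcnip4 and the silent subunit Kcns3, all with means above 30 FPKM over the 6 libraries. Of neighbours in this order, Kcnk1 and Kcnip3 overlapped in their values over the 6 libraries, as did Kcna2 and Kcnip4, and Kcnip4 and Kcns3. A mean of at least 10 FPKM was reached by 15 genes, and 8 had a mean under 1 FPKM: Kcnma1, Kcnf1, Kcne4, Kcnt2, Kcnh5, Kcna5, Kcnh3 and Kcnk6. The lowest, Kcnk6, had a mean of 0.486 over the 6 libraries.

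**Figure D2:**
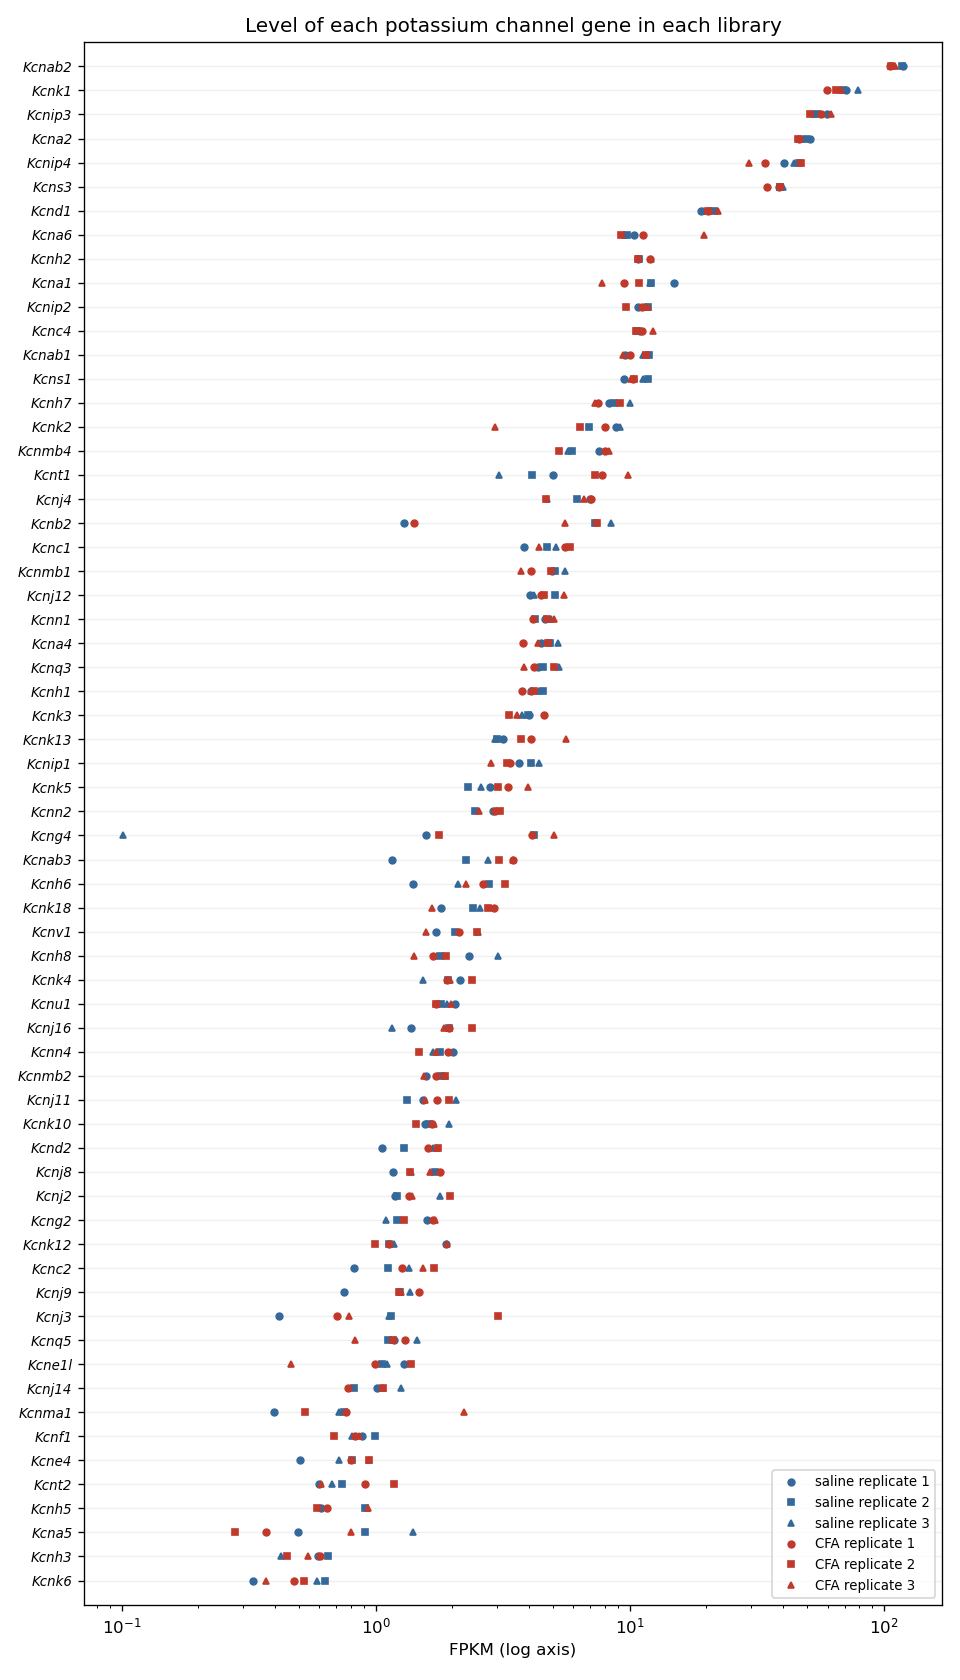
FPKM (log axis) of 64 potassium channel genes in each of the 6 libraries, ordered by the mean. Circles, squares and triangles are replicates 1, 2 and 3, red for CFA and blue for saline. Kcnab2 stands highest, most genes show closely spaced points, and Kcng4 has one saline library at 0.101.

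Of the Kv alpha subunits, 26 genes were in the table and 22 were tested, with 11 estimates above 0 and 11 below and a median log2 fold change of 0.025. Kcna1, a low-threshold Kv1 subunit that brakes firing and sits beside the nodes of myelinated axons, had the smallest p of the class. It stood at 9.49, 10.9 and 7.76 FPKM with CFA and at 14.9, 12.1 and 12.0 FPKM with saline. The CFA values were all below the saline values, with CFA replicate 3 the lowest. The means were 9.38 ± 1.57 and 13.0 ± 1.63 FPKM (SD, n = 3), and the log2 fold change of -0.44 (SE 0.140) had an adjusted p of 0.510 by limma. Without CFA replicate 3 the log2 fold change was -0.32.

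Kcna2, the most abundant alpha subunit and the common partner of Kcna1, was listed at 46.2, 45.7 and 46.5 FPKM with CFA and 51.0, 49.5 and 47.2 with saline. These values did not overlap either, but lay close together. Kcna2 had a log2 fold change of -0.09, with a 95% interval from -0.24 to 0.06. Kcna6, another Kv1 subunit, was at 11.2, 9.20 and 19.6 FPKM with CFA and 10.4, 9.71 and 9.60 with saline. Here CFA replicate 3 stood far above the other 5 libraries. The log2 fold change of Kcna6 was 0.33, and 0.04 without that library. An exon of Kcna6 overlaps a gene on the other strand, and the sources do not state whether strand was used in counting. Kcna4, the A-type Kv1 subunit of small nociceptors, stood at 4.31 ± 0.488 FPKM with CFA and 4.85 ± 0.379 with saline, and Kcna5, under the filter, at 0.482 ± 0.277 and 0.933 ± 0.451 (SD, n = 3).

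The other Kv alpha genes with high levels differed little between the groups. Kcns3 and Kcns1 encode silent subunits that form no channel alone and modify Kv2 channels. Kcns3 stood at 37.6 ± 2.66 FPKM with CFA and 39.2 ± 0.788 with saline, and Kcns1 at 10.3 ± 0.120 and 10.9 ± 1.21 (SD, n = 3). The A-type Kv4 gene Kcnd1 was at 20.9 ± 1.11 and 20.0 ± 1.34 FPKM, with a log2 fold change of 0.07 and a 95% interval from -0.13 to 0.26. Its relative Kcnd2 was much lower, at 1.70 ± 0.0857 and 1.34 ± 0.310. The fast Kv3 gene Kcnc4 was at 11.3 ± 0.898 and 10.8 ± 0.172 FPKM. Kcnh2, the ERG channel gene known from heart rhythm, stood at 11.2 ± 0.708 and 11.3 ± 0.747, and its relative Kcnh7 at 7.99 ± 1.03 and 8.98 ± 0.894. For Kcnc4 and Kcnh2 the interval excluded a change of 1.5-fold in either direction.

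The 9 auxiliary genes included 3 of the 6 highest levels of the family, and 8 were tested, 2 with an estimate above 0 and 6 below (median log2 fold change -0.078; 1 and 7 with quantile normalization). Kcnab3, a Kv1 beta subunit, was at 3.46, 3.07 and 3.47 FPKM with CFA and 1.16, 2.26 and 2.76 with saline. The CFA values were all higher and lay close together, while saline replicate 1 was well under the rest. For Kcnab3 the log2 fold change was 0.54 (SE 0.205, adjusted p = 0.580 by limma), and 0.31 without saline replicate 1. Exons of Kcnab3 overlap the antisense gene Kcnab3os, so its reads may be shared if strand was not used. The related Kcnab1 stood at 10.3 ± 1.14 and 10.9 ± 1.19 FPKM (SD, n = 3).

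Kcnip1 encodes a calcium-binding KChIP protein that raises the surface level of Kv4 channels. Its level was 3.39, 3.28 and 2.84 FPKM with CFA and 3.66, 4.09 and 4.39 with saline. All CFA values were below the saline values. For Kcnip1 the log2 fold change was -0.28 (SE 0.101, adjusted p = 0.574 by limma), and -0.17 without both libraries numbered 3. The other KChIP genes were far more abundant: Kcnip3 was at 56.6 ± 5.32 and 55.7 ± 3.49 FPKM and Kcnip2 at 10.9 ± 1.09 and 11.4 ± 0.554 (SD, n = 3). Kcnip4 stood at 34.0, 47.1 and 29.4 FPKM with CFA and at 40.3, 46.4 and 44.4 with saline, with the groups overlapping through CFA replicate 2.

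Among the 9 inward rectifiers 8 estimates were above 0, against 51.4% of all genes tested, with a median log2 fold change of 0.107. Without both libraries numbered 3 there were 6 of the 8 then tested. None stood at an unadjusted p below 0.05 by limma, and the groups overlapped in all 9. Kcnj4, a strong inward rectifier, had the highest level at 6.12 ± 1.27 FPKM with CFA and 5.97 ± 1.16 with saline. Kcnj12, a strong rectifier too, was at 4.86 ± 0.568 and 4.44 ± 0.565 (SD, n = 3). The closest to the threshold was Kcnj16, which encodes a partner of glial inward rectifiers, at 1.95, 2.40 and 1.85 FPKM with CFA and 1.37, 1.94 and 1.16 with saline (unadjusted p = 0.0713 by limma). The pore subunits of ATP-sensitive channels, Kcnj11 and Kcnj8, were at 1.75 ± 0.192 and 1.59 ± 0.219 FPKM with CFA and 1.64 ± 0.383 and 1.41 ± 0.274 with saline.

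Of 10 background (K2P) channel genes 9 were tested, 4 with an estimate above 0 and 5 below. Kcnk13 encodes THIK-1, a channel known from microglia, where it sets the resting potential and supports surveillance. Its level was 4.08, 3.71 and 5.60 FPKM with CFA and 3.16, 2.99 and 2.94 with saline. The saline values lay close together, all CFA values were higher, and CFA replicate 3 was the highest. The means were 4.46 ± 0.998 and 3.03 ± 0.119 FPKM (SD, n = 3), and the log2 fold change of 0.42 (SE 0.138) had an adjusted p of 0.531 by limma. Without CFA replicate 3 it was 0.28, and without both libraries numbered 3 it was 0.26. The 5 macrophage markers (Aif1, Cx3cr1, Csf1r, C1qa and Ctss) all had estimates above 0. By limma 4 stood at an unadjusted p below 0.05, where 5.37% of all genes tested were higher at that p. The other was Cx3cr1, at 1.03, 2.18 and 4.33 FPKM with CFA and 2.17, 2.53 and 0.896 with saline. Together the 5 markers summed to 97.8 to 110.9 FPKM with CFA and 67.1 to 74.7 with saline. None of these markers was at 0 in any library, and their part in the Kcnk13 values was not tested.

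Kcnk5 encodes an alkaline-activated background channel best known from epithelia. It was at 3.33, 3.03 and 3.97 FPKM with CFA and at 2.83, 2.30 and 2.60 with saline. The groups did not overlap, although the lowest CFA value lay near the highest saline value. For Kcnk5 the log2 fold change was 0.31 (SE 0.114, adjusted p = 0.574 by limma), and 0.23 without CFA replicate 3. RefSeq promoters (GRCm38.p6, 250 bases before to 50 after the start) were at hand for both of these higher genes and are shown because they differ in composition. Capitals mark the GC box GGGCGG on either strand, and each sequence is written 5′ to 3′ on the gene's strand. Kcnk13 has its window at chr12:99964249-99964548 on the plus strand and Kcnk5 at chr14:20181733-20182032 on the minus strand.
Kcnk13: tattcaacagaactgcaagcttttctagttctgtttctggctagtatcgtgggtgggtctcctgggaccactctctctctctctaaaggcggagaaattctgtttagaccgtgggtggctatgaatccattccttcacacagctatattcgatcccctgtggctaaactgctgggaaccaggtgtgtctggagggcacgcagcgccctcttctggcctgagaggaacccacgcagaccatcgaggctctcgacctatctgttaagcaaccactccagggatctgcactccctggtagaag
Kcnk5: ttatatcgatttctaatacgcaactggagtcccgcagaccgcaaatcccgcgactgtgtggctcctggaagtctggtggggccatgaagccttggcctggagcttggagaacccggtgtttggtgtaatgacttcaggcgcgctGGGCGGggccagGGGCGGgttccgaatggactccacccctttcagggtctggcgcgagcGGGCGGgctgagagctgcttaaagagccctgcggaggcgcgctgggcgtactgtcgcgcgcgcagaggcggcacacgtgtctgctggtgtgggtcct
The Kcnk5 window held 3 GC boxes and was 63.7% G and C, and the Kcnk13 window held none and was 52.7%. A GC box was found in 35.7% of all 32851 promoter windows and in 49.3% of the 71 windows that matched 49 of the channel genes. The windows of channel genes were also richer in G and C, with a median of 58.3% against 52.7% for all windows. The short cyclic AMP response motif TGACG, searched on both strands, was in neither window, in 20.8% of all windows and in 16.9% of those of channel genes.

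Kcnk1 was the most abundant K2P gene and encodes a weakly conducting background channel. It stood at 59.7, 64.9 and 67.5 FPKM with CFA and at 70.7, 68.9 and 79.4 with saline. All CFA values were lower, the highest by little. The log2 fold change was -0.19, with a 95% interval from -0.39 to 0.02. Kcnk2, the mechano- and heat-sensitive TREK channel gene, was at 8.02, 6.38 and 2.96 FPKM with CFA and 8.78, 6.91 and 9.11 with saline. CFA replicate 3 was far below the other 5 libraries, and the log2 fold change was -0.52, and -0.18 without that library. Kcnk18, which encodes TRESK, a channel of trigeminal neurons linked in people to migraine, stood at 2.45 ± 0.680 FPKM with CFA and 2.26 ± 0.400 with saline (SD, n = 3), with a 95% interval of the log2 fold change from -0.36 to 0.49. Kcnk3, an acid-sensitive TASK channel, was at 3.84 ± 0.652 and 3.91 ± 0.136.

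**Figure D3:**
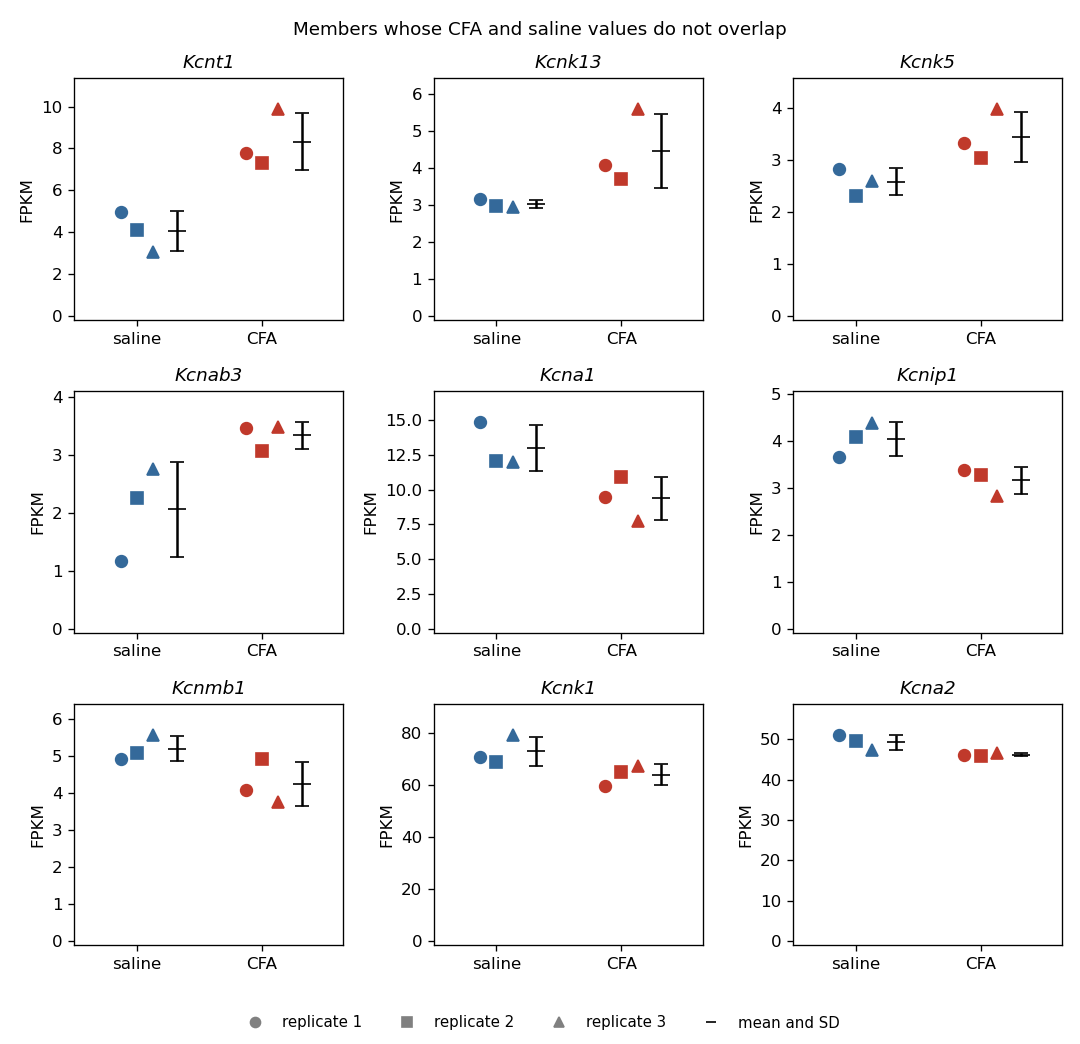
FPKM of the 9 potassium channel genes whose CFA and saline values do not overlap. Each point is a library (circle, square and triangle for replicates 1, 2 and 3), and the black bar gives the mean and SD of 3 libraries. The ratio of the means is highest for Kcnt1 (2.05), and in Kcna2 the groups lie close together.

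Of 7 calcium-activated channel genes 6 were tested, none at an unadjusted p below 0.05 by limma, with 3 estimates on each side of 0 and a median log2 fold change of -0.006. Kcnmb1, a beta subunit that raises the calcium sensitivity of BK channels, was at 4.09, 4.90 and 3.74 FPKM with CFA and 4.93, 5.08 and 5.57 with saline. The CFA values were all lower, with CFA replicate 2 just under saline replicate 1. The log2 fold change was -0.24 (SE 0.109, adjusted p = 0.613 by limma), and -0.13 without both libraries numbered 3. Kcnmb4, the neuronal beta subunit, stood at 7.20 ± 1.66 and 6.41 ± 1.02 FPKM, and the SK channel gene Kcnn1 at 4.64 ± 0.444 and 4.59 ± 0.342 (SD, n = 3). The BK pore gene Kcnma1, with 38 annotated transcripts, was under the filter at 0.767, 0.527 and 2.22 FPKM with CFA and 0.399, 0.750 and 0.717 with saline. Its one high value was again CFA replicate 3.

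All 4 M-current genes had estimates below 0, and none stood at an unadjusted p below 0.05 by limma. Without both libraries numbered 3, 2 of the 4 were below 0. Kcnq3 was at 4.18, 5.05 and 3.82 FPKM with CFA and 4.35, 4.55 and 5.25 with saline. The groups overlapped, and the log2 fold change was -0.10 with a 95% interval from -0.38 to 0.18. Kcnq5 was at 1.10 ± 0.241 and 1.25 ± 0.179 FPKM (SD, n = 3).

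Several channel genes, picked after their values were seen, varied widely between libraries of one group. The median spread within groups was 0.145 on the log2 scale over the tested channel genes and 0.139 over all genes tested, and it reached 1.05 for Kcnb2. Kcnb2, a Kv2 subunit, was at 1.41, 7.43 and 5.58 FPKM with CFA and at 1.29, 7.32 and 8.41 with saline. Replicate 1 was low in both groups. Kcng4, a silent subunit, ran from 0.101 FPKM in saline replicate 3 to 5.01 in CFA replicate 3, so that its log2 fold change of 0.85 had a 95% interval from -0.52 to 2.22. Without saline replicate 3 that value was 0.27, without saline replicate 2 it was 1.39, and without both libraries numbered 3 it was 0.049. A pseudocount of 0.1 gave 1.61. Kcnj3, a G-protein-gated inward rectifier, was at 0.706, 3.02 and 0.787 FPKM with CFA and 0.415, 1.14 and 1.13 with saline, with CFA replicate 2 far above the rest. Kcnb2 and Kcng4 have 2 annotated transcripts each. Over the 68 genes the highest library stood at a median of 1.56 times the lowest, and in 15 at 2 times or more. Across the tested channel genes, CFA replicate 3 held the highest of the 6 values in 23.3% and the lowest in 25.0%, against 28.2% and 16.3% of all genes tested.

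**Figure D4:**
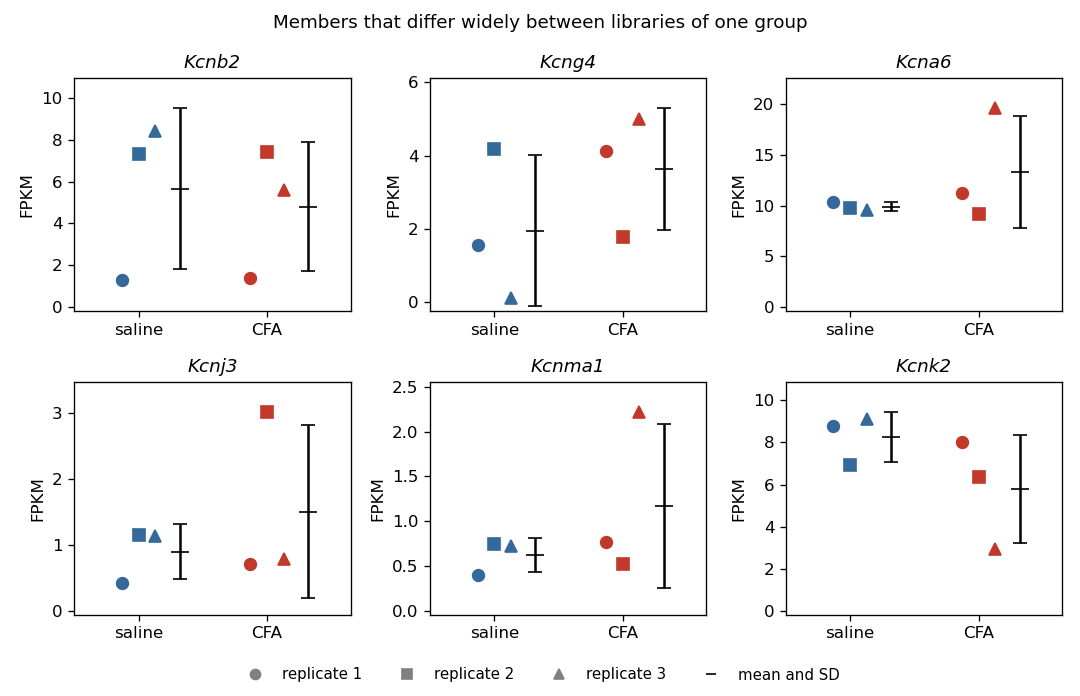
FPKM of 6 potassium channel genes with a wide spread between libraries of a group, chosen after their values were seen. Each point is a library (circle, square and triangle for replicates 1, 2 and 3), and the black bar gives the mean and SD of 3 libraries. Replicate 1 is low in both groups for Kcnb2 (1.41 and 1.29 FPKM), and CFA replicate 3 lies apart for Kcnma1 and Kcnk2. The SD bar of Kcng4 with saline reaches below 0 because its SD (2.07) exceeds its mean (1.95).

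Some of these genes are neighbours in the genome. Kcnmb1, on the plus strand of chromosome 11 at 33963013 to 33973641, lies inside Kcnip1, which runs on the minus strand from 33629339 to 33993152, and no exon of the pair overlaps. For both, all CFA values were below all saline values. Their promoters are given because the pair shares a locus, at chr11:33962763-33963062 on the plus strand for Kcnmb1 and at chr11:33993144-33993443 on the minus strand for the outermost of the 3 starts listed for Kcnip1. Neither window holds a GC box or TGACG, so no letter is in capitals, while 1 of the other Kcnip1 starts has 1 GC box.
Kcnmb1: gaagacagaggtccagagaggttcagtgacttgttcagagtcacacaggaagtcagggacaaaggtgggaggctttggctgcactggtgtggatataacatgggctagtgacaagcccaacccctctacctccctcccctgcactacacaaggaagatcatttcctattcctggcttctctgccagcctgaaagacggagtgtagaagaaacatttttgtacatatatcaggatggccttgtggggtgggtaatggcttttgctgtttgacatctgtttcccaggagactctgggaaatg
Kcnip1: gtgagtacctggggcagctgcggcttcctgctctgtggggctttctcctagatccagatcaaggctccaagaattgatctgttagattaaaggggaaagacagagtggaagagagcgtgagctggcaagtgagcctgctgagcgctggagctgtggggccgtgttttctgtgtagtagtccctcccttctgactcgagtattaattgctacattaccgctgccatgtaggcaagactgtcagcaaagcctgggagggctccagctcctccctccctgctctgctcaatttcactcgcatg
The Kv1 genes Kcna1, Kcna5 and Kcna6 form a cluster on chromosome 6, with 104984 bases between Kcna5 and Kcna1 and 61944 between Kcna1 and Kcna6. All CFA values of Kcna1 were below its saline values, while those of Kcna6 and Kcna5 overlapped between the groups. Kcnj16 and Kcnj2 lie 38195 bases apart on chromosome 11, and their values overlapped between the groups as well. Kcna2 and Kcnc4 lie 323297 bases apart on chromosome 3. Kcna2 was lower without overlap, while the values of Kcnc4 overlapped. On chromosome 7, 295732 bases separate Kcnj11 and Kcnc1, and both overlapped between the groups.

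Genes that work with potassium channels were counted from a list of 40, of which 37 were in the table and 35 were tested. By limma none stood at an adjusted or an unadjusted p below 0.05, where the unadjusted share over all genes was 8.32%, and 18 estimates were above 0 and 17 below (median log2 fold change 0.001). The 13 genes that cluster Kv1 channels along the axon, such as Cntnap2 and Adam22, had 4 estimates above 0 and 9 below, and summed to 197 to 215 FPKM with CFA and 192 to 224 with saline. Groups did not overlap in 2 partner genes, 5.71% of those tested against 14.5% of all genes. The Kv1-associated secreted protein gene Lgi3 was at 31.6, 31.0 and 33.0 FPKM with CFA and 29.6, 29.3 and 30.7 with saline. Nedd4l, a ubiquitin ligase that lowers the surface level of several channels, was at 11.5, 12.7 and 6.52 FPKM with CFA and 13.5, 14.4 and 13.3 with saline, with CFA replicate 3 far below the rest. The 4 hyperpolarization-activated channel genes (Hcn) summed to 39.5 to 47.1 FPKM with CFA and 40.7 to 43.5 with saline.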

How the data were processed

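Poly(A) RNA of 6 trigeminal ganglion libraries was sequenced with a stranded kit, per the labels' protocols. The authors deposited one table of FPKM values, per the file headers. The submitters' processing notes name build GRCm38. Aligner, quantifier and annotation release: not given in the sources used here. In every row the larger group mean was at least 0.501 FPKM, and Kcn genes without a row were not analysed here. The table had 1 line emptied for this work. All 68 member IDs matched GENCODE M21, 63 with identical coordinates. A search for whole-read steps in low values reached a strength of 0.208 (1 would be all whole), so depth is unknown and no counting interval is given. No 2 libraries looked like copies: rank correlations were 0.957 to 0.972 within groups and 0.954 to 0.973 between them.

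Log2(FPKM + 1) of genes averaging 1 FPKM or more was compared with limma 3.58.1 in R 4.3.3 (eBayes with trend), two-sided, with Benjamini-Hochberg adjustment over 12238 genes, and was tested on simulated data. An exact permutation test of 3 against 3 libraries cannot go below p = 0.1, so none was run. The labels do not say that libraries are separate animals, and p-values then cover only the spread between these libraries, which may be technical.

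Named genes were any called gene, up to 8 rises and 8 falls without overlap, the 2 most abundant of each subfamily and any gene listed at 0. Further genes are given for their level or spread. Results of a few single channel genes are not reported here, although every count includes them. The members, lists, markers and tests were chosen with earlier results of these data known. The alternatives were 3 scalings (a common total, median-of-ratios and quantile), a pseudocount of 0.1, a mean of at least 5 FPKM or no filter, a replicate block, log2(Gh + 1) as a covariate, each library left out, and both libraries numbered 3 left out. Promoters are from RefSeq. The protein table the plan named was not used here. Figures were drawn with matplotlib 3.10.9.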

Additional observations from a re-analysis of the deposited data

How the results depend on the processing

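No potassium channel gene was called under any of the 15 alternatives, while among all genes tested 7 were called as reported, 1 with the replicate block, 1 with the Gh covariate and 5 to 19 when 1 library was left out. The 6 channel genes at an unadjusted p below 0.05 by limma became 2 with a minimum mean of 5 FPKM, where fewer are tested, 3 without both libraries numbered 3, and 3 to 7 without 1 library. As shares these were 8.70%, 5.08% and 5.08% to 12.3%, against 8.58%, 5.69% and 5.02% to 13.0% of all genes in the same fits. The 9 without overlap became 4, 22 and 13 to 19 in the same settings. Smaller groups overlap less often in any gene: the shares were 17.4%, 37.3% and 21.7% to 33.3%, against 15.2%, 34.9% and 20.2% to 34.3% of all genes. At an unadjusted p below 0.05 by limma, the channel share was the larger without CFA replicate 1, saline replicate 2 or saline replicate 3. Without saline replicate 2 it was 11.7% against 5.87% of all genes. The channel share was the smaller without each other single library, as without CFA replicate 3 (5.08% against 6.12%). With quantile normalization 8 channel genes stood below that p, 13.3% against 8.68% of all genes. The 13 without overlap were then 21.7%, against 15.3%. The median log2 fold change of -0.013 was -0.065 with that minimum and -0.015 to 0.012 without 1 library. Partner genes at an unadjusted p below 0.05 by limma went from 0 to 1 with the replicate block, 2 with the Gh covariate, 1 without both libraries numbered 3, and 0 to 3 without 1 library. With the replicate block the channel count stayed at 6, of which 5 were shared. Deviations of same-numbered libraries correlated at 0.0803, 0.111 and -0.0475, and those of differently numbered ones at -0.182 to 0.113. For CFA replicates 1 and 2 the same-numbered saline library gave the highest value, and for CFA replicate 3 it was saline replicate 1. The ranges overlap, so the numbers were not taken to pair the libraries, but structure shared by number was not tested further.

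Of the named genes, signs turned for Kcnip3 with quantile normalization (log2 fold change -0.021) and Kcnh2 with the Gh covariate (0.00094). Without both libraries numbered 3 they turned for Kcnb2 (0.048), Kcnh2 (0.068), Kcnip3 (-0.077), Kcnj12 (-0.0010), Kcnj4 (-0.17), Kcnmb4 (-0.035) and Kcnq3 (0.038). Without 1 library the log2 fold change ran from -0.79 to 0.40 for Kcnb2, -0.054 to 0.043 for Kcnh2, -0.043 to 0.090 for Kcnip3 and -0.11 to 0.18 for Kcnj4. The cause was not tested. Read depth is unknown, so low levels carry an error that only the 3 libraries per group show.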
